A study of Mus musculus with 6 samples.

Results

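The 7 genes described here, Slc34a2, Lamp3, Napsa, Etv5, Chil1, Abca3 and Lpcat1, are known from alveolar type 2 (AT2) cells and encode no surfactant protein. They were chosen by name, 7 of the 32285 genes in the count tables, and followed through every cell class of the mouse lung. AT2 cells are the cuboidal cells of the alveolus that make surfactant, the film of lipid and protein that keeps air spaces open, and they act as progenitors of the flat AT1 cells. They store surfactant in lamellar bodies, which are lysosome-related organelles, and release it by exocytosis. Abca3 encodes the transporter that carries phospholipid into lamellar bodies, Lpcat1 the enzyme that remodels lysophosphatidylcholine into the saturated phosphatidylcholine of surfactant, and Lamp3 a lysosome-associated membrane protein of lamellar bodies. Napsa encodes napsin A, an aspartic protease that processes surfactant proproteins, and Slc34a2 a sodium-phosphate cotransporter of the apical membrane. Etv5 is an ETS transcription factor downstream of FGF signaling, and Chil1 encodes a secreted chitinase-like protein without chitinase activity.

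The samples were right lungs of 6 male mice, 12 weeks old, that carry a human CTLA4 knockin (hCTLA4). All 6 mice received bleomycin, which injures the alveolar epithelium and leads to fibrosis, at 1.25 U/kg through the oropharynx in 2 doses 2 weeks apart, so there is no uninjured lung among them. From day 21 after the second bleomycin dose, 3 mice received IgG1 isotype control and 3 received the CTLA4-blocking antibody ipilimumab, each at 5 mg/kg, 2 injections a week, for 4.5 weeks. Single cells of each lung were counted as unique molecular identifiers (UMIs), 1 UMI per captured RNA molecule, in a 10x Genomics 3′ library per mouse. The libraries held 37666042 to 48612412 UMIs and gave 3268 to 4351 cells each, 24261 cells in all. The library of ipilimumab replicate 1 stood apart, with 22056 barcodes reaching 100 UMIs against 4834 to 6230 elsewhere, and with 78.9% of its UMIs in called barcodes where the others had 92.4% to 93.1%. Of all 24199 distinct cell barcodes, 61 occurred in more than 1 library, and no barcode of a surfactant-rich cell did.

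Surfactant-rich cells were those with at least 5% of their UMIs from the surfactant protein genes Sftpa1, Sftpb, Sftpc and Sftpd. There were 186 of them, 4, 5 and 0 in IgG1 replicates 1, 2 and 3, and 163, 7 and 7 in ipilimumab replicates 1, 2 and 3. In ipilimumab replicate 1, 152 of the 163 lay below the UMI threshold of the library and were called by their profile, and the median of its surfactant-rich cells was 1025 UMIs against 12937 to 28005 in the other 4 mice. Other cells were assigned by marker genes, at least 3 of 6 detected with a lead of 2 over the next class, and are written as B-like, T-like and so on. For the name AT2, 8 further AT2 genes that did not enter the gate were looked at. All 8 were called higher in surfactant-rich cells, among them Hc (complement C5), S100g (a calcium-binding protein) and Cxcl15 (lungkine). They were listed with earlier results of these data known, so this describes the cells and is not an independent check. Of the 16195 genes tested, 11.8% were called higher.

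The 7 genes lie on 6 chromosomes of GRCm38 (mm10) in the GENCODE vM21 annotation. Slc34a2 is at chr5:53038081-53071664 on the plus strand, Napsa at chr7:44572380-44586862 on the plus strand, Chil1 at chr1:134182176-134190181 on the plus strand, Lpcat1 at chr13:73467197-73516422 on the plus strand and Abca3 at chr17:24351950-24410201 on the plus strand. Lamp3, at chr16:19653378-19706375, and Etv5, at chr16:22381309-22439719, are both on the minus strand of chromosome 16. RefSeq (GRCm38.p6) promoter windows of 300 bases, 250 before to 50 after the start, were matched for 6 of the 7 genes. Of these, 4 are printed because their genes range from nearly restricted to surfactant-rich cells to broadly counted. The Slc34a2 window is at a RefSeq start inside the GENCODE gene. Capitals mark matches, on either strand, to TGTTTAC (a forkhead motif) or TTGCNNAA (a C/EBP motif).
Slc34a2, chr5:53049103-53049402, plus strand: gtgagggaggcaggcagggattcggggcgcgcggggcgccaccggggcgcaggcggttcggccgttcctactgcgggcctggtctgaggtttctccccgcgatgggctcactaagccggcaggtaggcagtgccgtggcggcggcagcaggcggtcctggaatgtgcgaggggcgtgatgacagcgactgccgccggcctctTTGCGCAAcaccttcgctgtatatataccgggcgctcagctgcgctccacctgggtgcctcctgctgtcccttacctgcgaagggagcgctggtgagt
Lamp3, chr16:19706316-19706615, minus strand: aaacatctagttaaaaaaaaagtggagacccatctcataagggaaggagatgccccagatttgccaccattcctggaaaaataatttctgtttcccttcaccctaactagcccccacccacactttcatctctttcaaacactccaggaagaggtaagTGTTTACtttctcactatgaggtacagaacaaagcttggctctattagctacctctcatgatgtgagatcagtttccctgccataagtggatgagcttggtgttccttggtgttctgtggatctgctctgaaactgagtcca
Chil1, chr1:134181906-134182205, plus strand: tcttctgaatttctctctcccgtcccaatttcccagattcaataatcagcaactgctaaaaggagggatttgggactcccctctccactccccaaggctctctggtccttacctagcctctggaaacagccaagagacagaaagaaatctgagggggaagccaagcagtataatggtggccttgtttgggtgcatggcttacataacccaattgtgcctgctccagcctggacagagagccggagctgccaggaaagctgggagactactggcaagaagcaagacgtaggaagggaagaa
Abca3, chr17:24351773-24352072, plus strand: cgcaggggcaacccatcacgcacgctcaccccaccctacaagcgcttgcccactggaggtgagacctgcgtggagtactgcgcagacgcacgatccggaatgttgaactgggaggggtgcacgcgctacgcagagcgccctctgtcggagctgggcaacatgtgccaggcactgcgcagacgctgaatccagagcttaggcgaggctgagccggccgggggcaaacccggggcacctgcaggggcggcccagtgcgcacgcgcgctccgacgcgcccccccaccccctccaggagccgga
The Slc34a2 window held 30 CpG dinucleotides and the Abca3 window 29, where the median over 32817 mouse windows was 7. The Lamp3 window held 0 and the Chil1 window 3. Slc34a2 and Lamp3, both nearly confined to surfactant-rich cells (95.7% and 86.2% of their UMIs), thus had the most and the fewest CpG of the 4 printed windows. Of the windows not printed, that of Lpcat1 held 25 CpG and the 2 of Etv5 held 37 and 19. A relation between the number of CpG and how restricted the genes were was not tested. TGTTTAC was found in the Lamp3 window and in 1 of the 2 Etv5 windows, and is in 3.65% of all windows. TTGCNNAA was found in the Slc34a2 window and is in 10.8% of all windows. CAAGTG (an NKX motif, in 13.6% of windows) and CCGGAAGT (an ETS motif, in 3.89%) had no match in the windows of the 6 genes, and no window held more than 1 of the 4 motifs.

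The first comparison asked how far each gene marks surfactant-rich cells. UMIs were summed per mouse over surfactant-rich cells and over all other cells, in the 4 mice with at least 5 surfactant-rich cells, and tested with the edgeR quasi-likelihood test with mouse as a block. All 7 genes passed the filter on low counts and were called higher in surfactant-rich cells, at an adjusted p of at most 5.47e-30, where 11.8% of the 16195 genes tested were called higher. The fit of 4 mice left 3 residual degrees of freedom, so p this small draws on spread that edgeR shares across genes. The log2 fold change was 12.05 ± 0.40 (SE) for Slc34a2, 10.59 ± 0.40 for Lamp3, 9.48 ± 0.38 for Chil1 and 7.18 ± 0.37 for Etv5. It was 5.91 ± 0.34 for Lpcat1, 4.48 ± 0.33 for Abca3 and 4.01 ± 0.30 for Napsa. The median over the 7 was 7.18, against -0.46 over all genes tested. Each of the 7 was above the other cells under every alternative run, with the widest range for Slc34a2, from 10.80 to 12.67. The split of all calls depended on the tool, 1911 higher and 2704 lower with edgeR and 1950 higher and 1816 lower with DESeq2.

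The 7 genes thus fell along a range from nearly exclusive to broadly shared, as the plot of the classes that hold each gene's UMIs shows. Over the 6 mice, surfactant-rich cells made up 186 of 24261 cells and held 95.7% of 3365 Slc34a2 UMIs, 86.2% of 1517 Lamp3 UMIs and 70.6% of 2406 Chil1 UMIs. They held 37.7% of 1181 Etv5 UMIs and 18.5% of 4000 Lpcat1 UMIs. They held 8.20% of 6757 Abca3 UMIs and 5.86% of 26684 Napsa UMIs, although both genes were far above the other cells per UMI. These pooled shares lean on ipilimumab replicate 1, which holds 163 of the 186 cells, and without it they were 94.7% for Slc34a2, 80.7% for Lamp3, 61.6% for Chil1, 26.6% for Etv5, 12.5% for Lpcat1, 5.11% for Abca3 and 3.93% for Napsa. For Chil1 the share was 33.01%, 44.8% and 0% in the IgG1 mice, where neutrophil-like cells held the most Chil1 UMIs, and 89.4%, 82.9% and 79.2% in the ipilimumab mice. For Etv5 it was 23.7%, 29.3% and 0% in IgG1 and 64.9%, 38.7% and 30.5% in ipilimumab, and for Abca3 3.23%, 6.77% and 0% against 22.0%, 7.53% and 6.61%. Slc34a2 varied least among mice with such cells, from 89.2% to 97.4%.

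**Figure D1:**
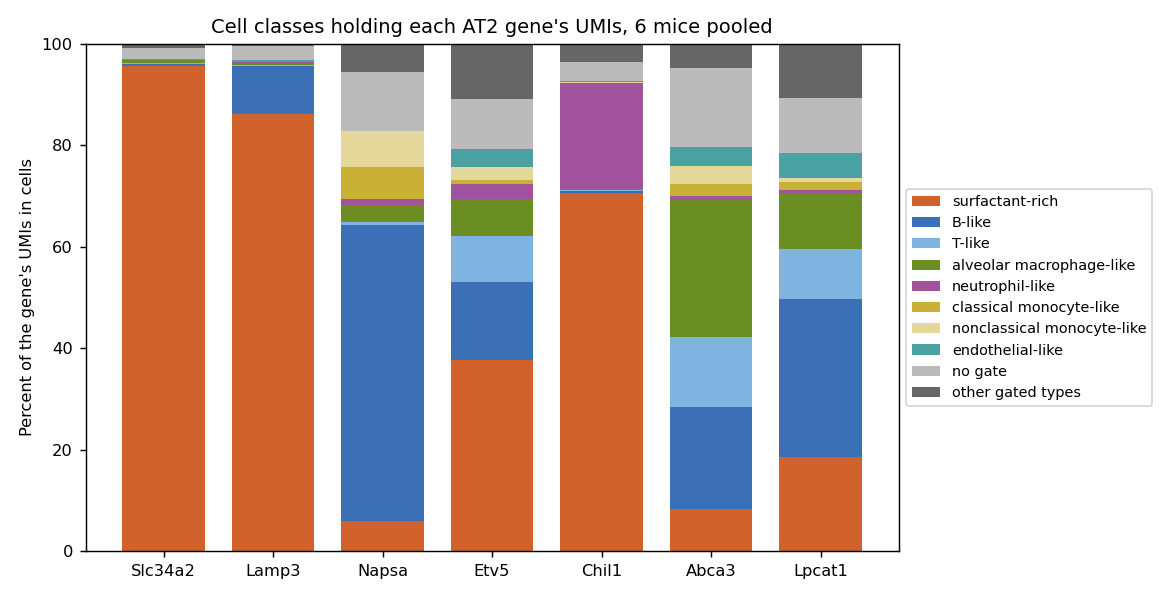
Share of each gene's UMIs (percent, y axis) held by each cell class, for 7 genes (x axis), with the cells of 6 mice pooled. Surfactant-rich cells hold 95.7% of Slc34a2 and 5.86% of Napsa UMIs, and B-like cells hold 58.4% of Napsa UMIs.

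Slc34a2 had the cleanest pattern. In surfactant-rich cells it stood at 4355 CPM (UMIs per 1000000 UMIs of the class in that mouse) in IgG1 replicate 2 and at 3266, 3128 and 3443 CPM in ipilimumab replicates 1, 2 and 3. IgG1 replicate 1, with 4 such cells, is given further on. The next class in order, cDC1-like cells, had 3.69 ± 9.04 CPM (mean ± SD over 6 mice), and all of it came from 11 UMIs in 1 cell of ipilimumab replicate 3. Of 5015 T-like cells, which should lack the gene, 0.199% had a Slc34a2 UMI (exact 95% binomial interval 0.0957% to 0.366%), against 82.3% (76.0% to 87.5%) of surfactant-rich cells, at median depths of 8591 and 1116.5 UMIs. With every cell thinned to 500 UMIs the expected shares were 0.0132% and 64.3%. The classes below surfactant-rich cells overlapped in their mouse ranges and were not told apart.

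Lamp3 stood at 1978 CPM in IgG1 replicate 2 and at 1310, 1362 and 1057 CPM in ipilimumab replicates 1, 2 and 3. The other marker-defined class with Lamp3 in every mouse was B-like cells, at 2.88 ± 0.73 CPM (n = 6 mice, range 2.03 to 3.91). Of 8051 B-like cells, 1.49% had a Lamp3 UMI (1.24% to 1.78%), against 0.0598% of T-like cells (0.0123% to 0.175%), which were deeper. Lamp3 is also known from mature human dendritic cells, and in Ccr7 DC-like cells, the class of mature dendritic cells here, 0 UMIs were counted in 51 cells, which allows a share of up to 5.88% of cells with a UMI as 3 counts of 51 (the exact 95% binomial interval reaches 6.98%). In the 17 AT1-like cells, 3 Lamp3 UMIs lay in 1 cell of IgG1 replicate 2.

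Chil1 was counted in 2 places. Surfactant-rich cells had 2295 CPM in IgG1 replicate 2 and 1531, 1193 and 3086 CPM in ipilimumab replicates 1, 2 and 3. Neutrophil-like cells came next among classes with several mice, at 66.3 ± 9.46 CPM (n = 6, range 50.2 to 78.0), below every surfactant-rich value and above every other class with at least 5 cells in the same mouse. Of 1831 neutrophil-like cells, 18.9% had a Chil1 UMI (17.1% to 20.8%), against 0.0997% of T-like cells (0.0324% to 0.233%). The next value, 56.4 CPM in cDC1-like cells of ipilimumab replicate 3, came from 2 of its 17 cells, in the mouse whose cDC1-like cells also had Slc34a2. In 4 airway secretory-like cells, 48 Chil1 UMIs were all in 1 cell of IgG1 replicate 1.

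**Figure D2:**
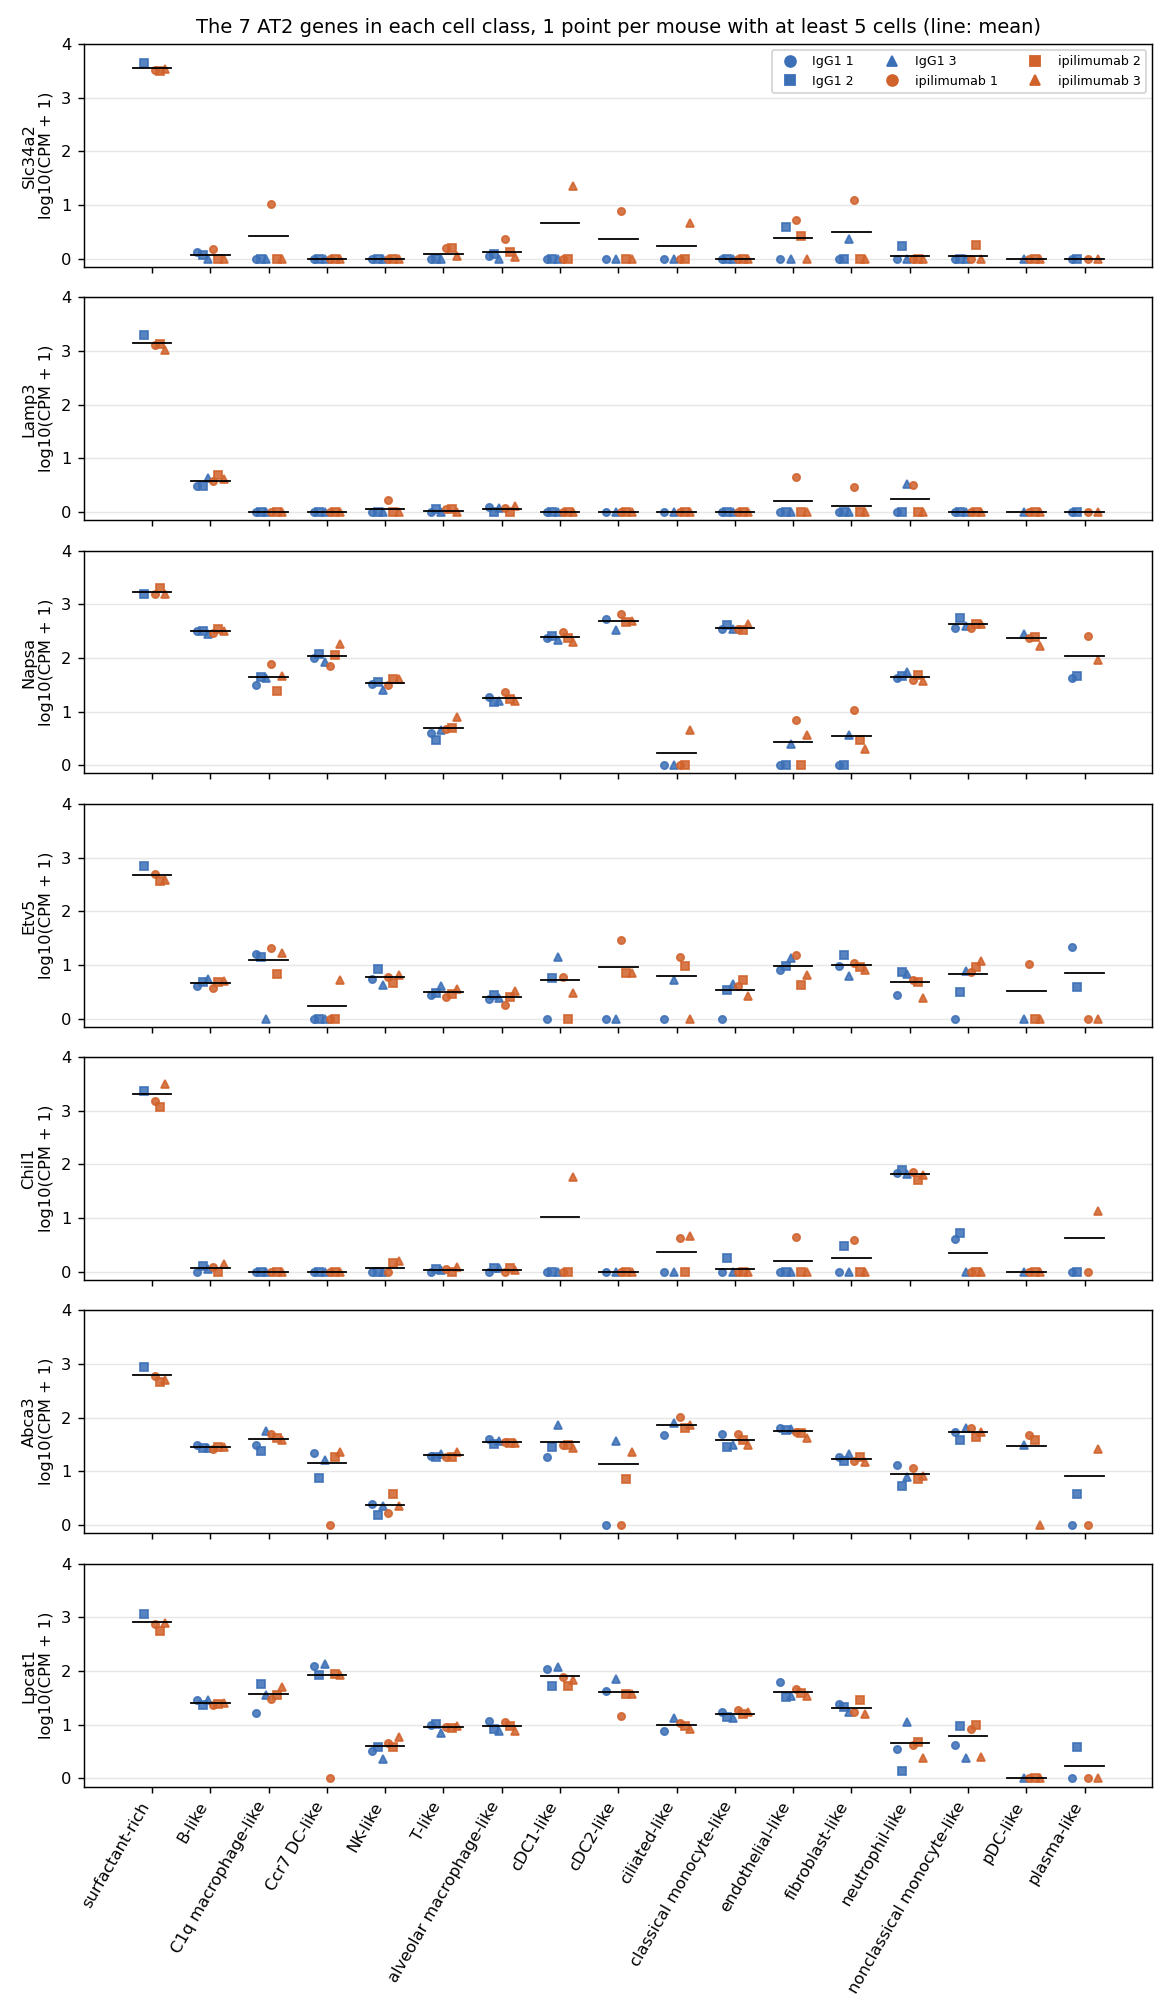
Level of each of the 7 genes, log10(CPM + 1) on the y axis, in each cell class (x axis). Each point is a mouse with at least 5 cells of the class and the line is the mean. Slc34a2 is at 3128 CPM or more in surfactant-rich cells and at 22.2 CPM or less in every other point, Lamp3 at 1057 CPM or more and at 3.91 CPM or less, whereas Napsa is between 199 and 665 CPM in B-like, cDC1-like, cDC2-like and monocyte-like cells.

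Napsa was the least restricted. Surfactant-rich cells had 1577 CPM in IgG1 replicate 2 and 1555, 2007 and 1555 CPM in ipilimumab replicates 1, 2 and 3. After them came cDC2-like cells at 495 ± 120 CPM (n = 5 mice), nonclassical monocyte-like cells at 422 ± 74.7 CPM and classical monocyte-like cells at 366 ± 42.1 CPM, whose mouse ranges overlapped one another. B-like cells had 312 ± 23.1 CPM, cDC1-like cells 240 ± 35.0 CPM and Ccr7 DC-like cells 110 ± 37.5 CPM (n = 6 mice each). Plasmacytoid DC-like (pDC-like) cells had 232 ± 46.9 CPM (n = 4 mice), a range that overlapped that of cDC1-like cells, and 96.3% of their 27 cells had a Napsa UMI. T-like cells had 1.98 to 6.98 CPM, so B-like and T-like cells of the same libraries did not overlap. Of 8051 B-like cells 78.97% had a Napsa UMI, against 1.66% of the deeper T-like cells, and B-like cells held 15574 of the 26684 Napsa UMIs. Alveolar macrophage-like, endothelial-like and fibroblast-like cells were at 21.9 CPM or less in every mouse.

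Abca3 and Lpcat1 were counted in most classes at low levels. Abca3 had 895 CPM in surfactant-rich cells of IgG1 replicate 2 and 595, 461 and 498 CPM in those of ipilimumab replicates 1, 2 and 3. Among classes with several mice, next came ciliated-like cells at 73.2 ± 20.9 CPM (n = 5 mice), endothelial-like cells at 54.6 ± 7.90 CPM and nonclassical monocyte-like cells at 52.4 ± 10.2 CPM (n = 6 each), which overlapped. Alveolar macrophage-like cells had 34.5 ± 2.37 CPM and held 1825 of the 6757 Abca3 UMIs, more than any other class. Lpcat1 had 1165 CPM in surfactant-rich cells of IgG1 replicate 2 and 763, 558 and 775 CPM in those of ipilimumab replicates 1, 2 and 3. Ccr7 DC-like cells at 85.1 ± 47.2 CPM and cDC1-like cells at 78.8 ± 28.2 CPM followed and overlapped, with endothelial-like cells at 40.5 ± 11.4 CPM. The 17 AT1-like cells of all mice gave 26 Lpcat1 UMIs, 219 CPM with an exact 95% Poisson interval of 143 to 321 CPM, which covers counting error only.

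Etv5 had 683 CPM in surfactant-rich cells of IgG1 replicate 2 and 486, 369 and 375 CPM in those of ipilimumab replicates 1, 2 and 3. Among the other classes with several mice its highest mean was 11.6 ± 7.24 CPM, in C1q macrophage-like cells (n = 6), followed by fibroblast-like cells at 8.86 ± 3.14 CPM and endothelial-like cells at 8.44 ± 4.08 CPM, which overlapped. Among 17 classes with at least 5 cells in 3 mice, the profile of Etv5 on log2(CPM + 10) was most like Lgi3, Bex4 and Slc26a4 (Pearson's r 0.98 each). Those most like Slc34a2 were Gm20629, C6 and Mlc1 (r 0.998 to 0.999), and those most like Lamp3 were Egfl6, Mlc1 and S100g (0.999 each). Abca3 was most like Rilp (0.91), Elovl1 (0.89) and Oma1 (0.89), and Lpcat1 most like Tnfaip8l3 (0.89), Macc1 (0.86) and Icam4 (0.85). Chil1 was most like Slco4c1 (0.98), AI463229 (0.96) and Tshr (0.95). These were second highest in neutrophil-like cells as Chil1 was, which follows from choosing them by likeness. AI463229 (6.57 CPM) and Icam4 (2.92 CPM) lay below the added 10 CPM even in surfactant-rich cells, their highest class. Napsa was most like Taok3 (0.77), Cd74 (0.69) and Fgd2 (0.68). Cd74, the invariant chain of MHC class II, was highest in cDC2-like cells. These r describe 17 classes drawn from the same 6 libraries, and for the first genes they rest on 1 class standing apart.

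Of 16 listed paralogs of the 7 genes, 12 could be tested in surfactant-rich against other cells, 1 was called higher and 5 lower, where 11.8% of all genes tested were called higher and 16.7% lower. The 1 called higher is near the share of all genes. Chia1, the acidic mammalian chitinase, was higher by 9.87 ± 0.45 and had 145 of its 185 UMIs in surfactant-rich cells. Chil3, a chitinase-like relative of Chil1, was lower by 5.97 on the log2 scale and highest in alveolar macrophage-like cells. The aspartic proteases Ctsd (-3.41) and Ctse (-2.17), the cholesterol transporter Abca1 (-3.08) and the acyltransferase Lpcat2 (-2.05) were also lower. Abca2 (0.38), Abca7 (0.12), Lpcat3 (-0.46), Lpcat4 (-2.85) and Etv1 (-0.69) were not called, the last and Lpcat4 with 1 UMI each in surfactant-rich cells, nor was Chit1, with 0 of its 142 UMIs there. Slc34a1, Slc34a3, Lamp5 and Chil4 had 0 UMIs in surfactant-rich cells and at most 51 in all cells, and were not tested.

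Genes of the same pathways were split. Over all genes tested, 11.8% were called higher and 16.7% lower, with a median of -0.46. These calls compare surfactant-rich cells with all other cells pooled, so a gene called higher could be higher still in a single other class. Of 12 surfactant lipid synthesis genes tested, 9 were called higher and 1 lower, with a median of 1.69. Scd1 (stearoyl-CoA desaturase, 5.67 ± 0.30), Elovl1 (fatty acid elongase, 4.38 ± 0.33), Chka (choline kinase, 1.04 ± 0.30) and Fasn (fatty acid synthase, 5.05 ± 0.34) had most UMIs, all higher, and Elovl6 was lower by 2.19 on the log2 scale. Of 9 lamellar body and lysosome-related organelle genes, 3 were called higher and 1 lower, with a median of 0.05. The protease Ctsh (2.01 ± 0.29), the tetraspanin Cd63 (1.19 ± 0.30) and the small GTPase Rab38 (3.74, from 7 UMIs) were higher and Lyst (-1.65) was lower, whereas Lamp1 (0.00 ± 0.29) and Lamp2 (0.05 ± 0.30), the widely expressed relatives of Lamp3, were not called. All 6 lung epithelial transcription factors were higher, from Cebpa at 1.27 ± 0.31 to Nkx2-1 at 7.59 ± 0.38, with Gata6 at 4.49 ± 0.40 and Klf5 at 4.40 ± 0.49. By class, only Nkx2-1 among them was highest in surfactant-rich cells. Cebpa was highest in alveolar macrophage-like, Gata6 in fibroblast-like and Klf5 in ciliated-like cells. Of 6 FGF response genes, 5 were tested and 3 were higher. These were the receptor Fgfr2 (3.03 ± 0.31) and the feedback inhibitors Spry1 (3.46 ± 0.46) and Spry2 (1.18 ± 0.41). Spry1 was higher in fibroblast-like cells (82.8 CPM against 54.3 in surfactant-rich cells). Spry2 was higher in natural killer (NK)-like cells (402 against 44.9 CPM). Dusp6 (0.88 ± 0.42) was not called, and Etv4, a relative of Etv5, had 1 UMI in surfactant-rich cells. All 6 pan-epithelial genes were higher, with Krt18 at 5.03 ± 0.34, Cdh1 at 3.92 ± 0.33, Krt8 at 4.66 ± 0.34 and Epcam at 2.79 ± 0.32. All 6 were higher still in ciliated-like cells, for example Krt8 (1199 CPM against 248 in surfactant-rich cells) and Epcam (362 against 172 CPM). Of the further AT2 genes with most UMIs, Lyz2 was higher by 2.06 ± 0.21, Cxcl15 by 11.41 ± 0.38, Hc by 11.92 ± 0.43 and S100g by 11.33 ± 0.43. Lyz2 was nearly as high in classical monocyte-like cells (22535.6 CPM) as in surfactant-rich cells (23902.5 CPM).

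The second question was whether the low-depth surfactant-rich barcodes hold the same genes as deep cells. Of 26 surfactant-rich cells with at least 10000 UMIs, 25 had all 7 genes. The exception was a cell of ipilimumab replicate 2 with 43038 UMIs, 161 Slc34a2 UMIs, 126 Napsa UMIs and 0 Lpcat1 UMIs, where the median was 22.5 Lpcat1 UMIs. Between these 26 cells Chil1 varied most, from 302 to 6277 CPM (coefficient of variation 0.681), and Slc34a2, Lamp3 and Napsa least (0.400, 0.398 and 0.399). Over the 26 cells, which come from 5 mice and differ in depth, Spearman's rho was 0.74 between Lamp3 and Abca3, 0.62 between Abca3 and Lpcat1 and -0.07 between Napsa and Chil1.

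In ipilimumab replicate 1, the 136 surfactant-rich cells with 500 to under 2000 UMIs had 6910 CPM of the 7 genes together, against 10840 CPM in its 9 cells of at least 10000 UMIs. Per UMI they were lower for Slc34a2 (2148 against 3813 CPM), Lamp3 (915 against 1559), Napsa (1159 against 1773), Abca3 (428 against 700) and Lpcat1 (399 against 948), and their exact 95% Poisson intervals did not overlap. For Etv5 (347 against 548 CPM) they did not overlap either, at 255 to 461 and 463 to 644, and for Chil1 (1513 against 1499 CPM) the intervals overlapped. The surfactant genes themselves took 12.8% of UMIs at the lower depth and 17.8% at the higher. Set against 1000 surfactant UMIs, Slc34a2 was 16.8 and 21.5, Napsa 9.04 and 9.98, Etv5 2.71 and 3.08, Abca3 3.34 and 3.94 and Chil1 11.8 and 8.44. On this scale the intervals did not overlap for Slc34a2 (14.9 to 18.8 and 20.2 to 22.8) and Lpcat1 (2.34 to 4.06 and 4.70 to 6.03), as in CPM. For Chil1, whose CPM intervals overlapped, they did not overlap per surfactant UMI (10.2 to 13.5 and 7.63 to 9.30), with the shallow cells higher. All these intervals cover counting error in pooled UMIs only, not the spread between cells of this 1 mouse. Among its 9 deep cells, Slc34a2 ran from 1360 to 5024 CPM, Lpcat1 from 228 to 1635 CPM and Chil1 from 345 to 2119 CPM. Another 96 barcodes of 100 to under 500 UMIs, too few to be called cells, also reached 5% surfactant UMIs in this library, against 5 in the other libraries together, and gave 52.6 UMIs of the 7 genes per 1000 surfactant UMIs, beside 53.9, 48.0 and 61.0 in the 3 deeper bins.

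**Figure D3:**
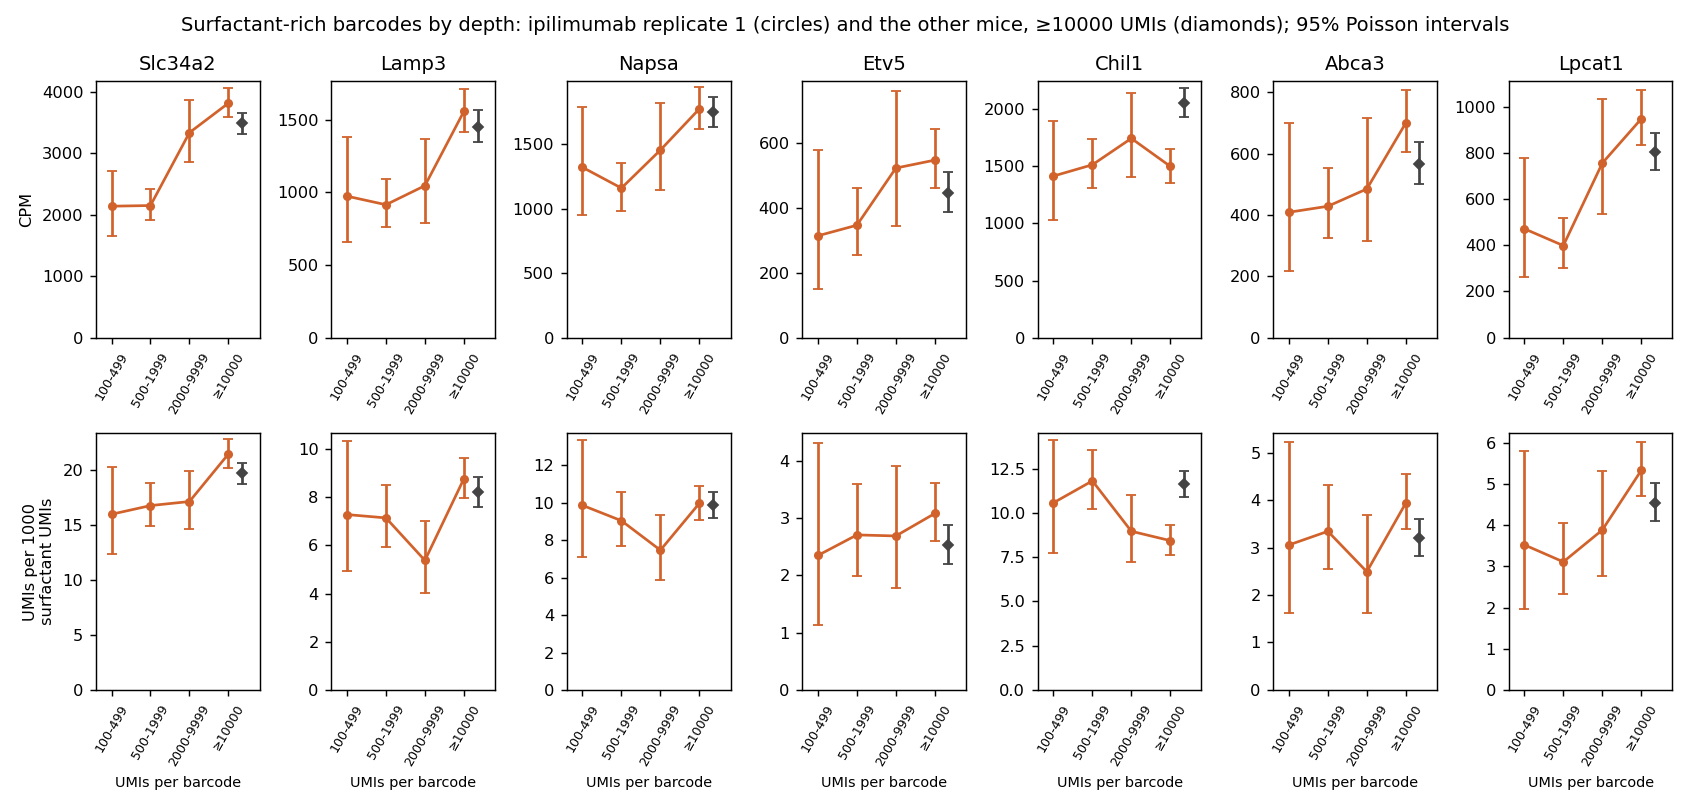
The 7 genes in surfactant-rich barcodes by UMI depth (x axis) in ipilimumab replicate 1 (circles) and in the other mice at 10000 UMIs and over (diamonds), as CPM (upper row) and as UMIs per 1000 surfactant UMIs (lower row), with exact 95% Poisson intervals. The intervals cover counting error only. Slc34a2 stands at 2148 CPM at 500 to under 2000 UMIs and at 3813 CPM at 10000 and over, a gap that is smaller per surfactant UMI (16.8 and 21.5), and Chil1 is at 1513 and 1499 CPM.

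Markers of some other cells differed with depth, and others did not. In the 136 shallow cells the 6 fibroblast markers summed to 1565 CPM and the 6 B cell markers to 517 CPM, where the 9 deep cells had 0 and 7.40 CPM. The 6 endothelial markers summed to 1034 and 618 CPM, the 6 AT1 markers to 1211 and 1177 CPM and the 6 airway secretory markers to 88.6 and 66.6 CPM. In the 96 barcodes of still lower depth the fibroblast markers stood at 62.9 CPM and the B cell markers at 1383 CPM, so the sets did not follow depth in 1 order. Among the 163 surfactant-rich cells of this mouse, 14 also passed the fibroblast gate, 13 the endothelial, 5 the AT1, 4 the B cell and 3 the pDC gate. The part of these markers in the lower levels at low depth was not tested. Around the 5% threshold, the 53 cells at 5% to 10% surfactant UMIs had 2350 CPM of Slc34a2 and 1229 of Chil1, and the 20 cells just outside, at 2% to 5%, had 990.5 and 318, while 24015 cells under 0.1% had 0.238 and 2.57.

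The third question was whether surfactant-rich cells differ between ipilimumab and IgG1. The test had 1 IgG1 mouse with at least 5 such cells, replicate 2, against 3 ipilimumab mice, and its spread comes from the ipilimumab mice alone. None of the 7 genes was called, and 0% of 4363 genes tested were called by edgeR, with 365 at an unadjusted p under 0.05 and 3 called by DESeq2. The log2 fold change of ipilimumab over IgG1 was -0.75 ± 0.36 (SE) for Abca3, -0.70 ± 0.37 for Lpcat1, -0.70 ± 0.38 for Etv5 and -0.64 ± 0.32 for Lamp3. It was -0.38 ± 0.28 for Slc34a2, -0.21 ± 0.51 for Chil1 and 0.14 ± 0.33 for Napsa. The median over the 7 was -0.64, against 0.16 over all genes tested. The lowest adjusted p among the 7 was 0.638 (edgeR), and it was 0.405, for Lamp3, with the 4 cells of IgG1 replicate 1 added.

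With the 4 cells of IgG1 replicate 1 beside the 5 of replicate 2, the values of 5 of the 7 genes were lower in all 3 ipilimumab mice than in both IgG1 mice, where 8.81% of 1430 genes with at least 100 UMIs were so placed and 18.6% were placed the other way. Lamp3 was at 1931 and 1978 CPM in IgG1 and at 1057 to 1362 CPM in ipilimumab. Lpcat1 was at 1069 and 1165 against 558 to 775 CPM, and Etv5 at 600 and 683 against 369 to 486 CPM. Abca3 was at 656 and 895 against 461 to 595 CPM, and Slc34a2 at 3506 and 4355 against 3128 to 3443 CPM. Napsa, at 1406 and 1577 against 1555 to 2007 CPM, overlapped. These IgG1 values rest on 9 cells, and IgG1 replicate 3 gave none. The values of ipilimumab replicate 1 include its 136 shallow cells, in which all 5 genes were lower than in its deep cells. In cells of at least 10000 UMIs alone, 5 in IgG1 and 21 in ipilimumab, 3 of the 7 genes were lower in all 3 ipilimumab mice, Lamp3, Etv5 and Lpcat1, where 7.28% of 1058 genes were so placed and 16.5% the other way. There Slc34a2 overlapped, at 3760 and 4336 CPM in IgG1 and 3813, 3097 and 3458 CPM in ipilimumab, and so did Abca3, at 654 and 923 CPM and at 700, 453 and 504 CPM. Per 1000 surfactant UMIs, Lamp3 (9.13 and 10.2 against 6.11 to 8.39) and Lpcat1 (5.05 and 6.03 against 3.44 to 4.63) did not overlap. Napsa did not overlap on this scale either, but was higher in ipilimumab, at 6.64 and 8.16 against 8.99 to 12.4. Slc34a2, Etv5, Abca3 and Chil1 overlapped. The share of all genes so placed was not computed on this scale.

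In CPM, too, Chil1 overlapped, at 1294 and 2295 CPM in IgG1 and 1193 to 3086 CPM in ipilimumab. The highest value, of ipilimumab replicate 3, turned on a single cell, chosen after its values were seen. It had 48751 UMIs, 306 of them Chil1, and held 61.0% of the Chil1 UMIs of the 7 cells, which without it stood at 1721 CPM. The sign of the Chil1 difference changed under 6 alternatives.

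**Figure D4:**
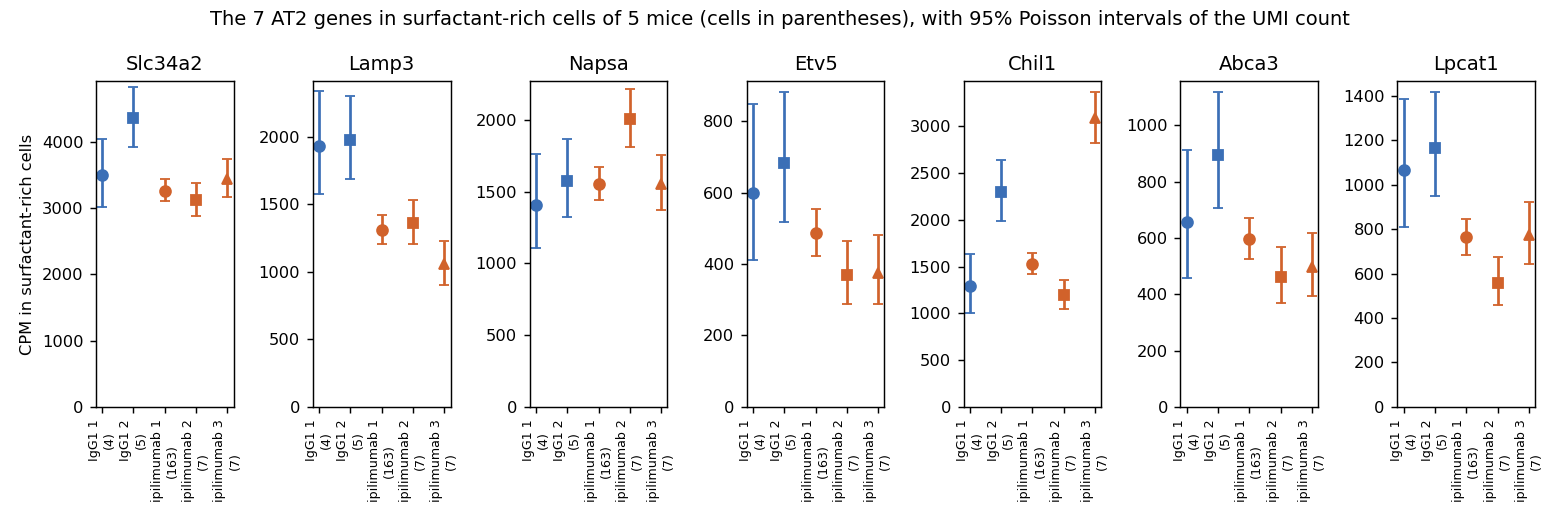
CPM of the 7 genes in surfactant-rich cells (y axis, from 0) of 2 IgG1 and 3 ipilimumab mice (x axis, with the number of cells), with exact 95% Poisson intervals that cover counting error only. Lamp3, Etv5, Abca3, Lpcat1 and Slc34a2 are lower in all 3 ipilimumab mice than in both IgG1 mice, and Napsa and Chil1 overlap.

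In all cells of a mouse the direction was the other way for the restricted genes. The 3 IgG1 mice had 5.26, 10.1 and 0.0304 CPM of Slc34a2 and the 3 ipilimumab mice 44.1, 15.3 and 13.9 CPM, so the groups did not overlap. This held for 7.56% of 16130 genes with at least 100 UMIs. Lamp3 was at 3.59, 5.28 and 1.03 CPM in IgG1 and at 18.3, 7.11 and 4.80 CPM in ipilimumab, and Chil1 at 5.73, 10.6 and 1.95 CPM and at 22.4, 6.75 and 15.1 CPM, and both overlapped. The log2 fold change was 2.17 ± 1.10 for Slc34a2, 1.53 ± 0.67 for Lamp3, 1.21 ± 0.64 for Chil1 and 0.59 ± 0.32 for Etv5. Napsa (0.01 ± 0.14), Abca3 (0.11 ± 0.10) and Lpcat1 (0.16 ± 0.20) lay near 0. None was called, at adjusted p from 0.948 to 0.992 (edgeR), where 0% of 17461 genes were called, 826 had an unadjusted p under 0.05, and DESeq2 called 42. In sums over all cells, fewer cells of a type and less RNA per cell cannot be told apart.

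With surfactant-rich cells left out, the log2 fold change was -0.30 for Lamp3 and -0.10 for Etv5, and for Slc34a2 it was 0.81, between levels of 0.0304 to 1.10 CPM in IgG1 and 0.527 to 1.36 CPM in ipilimumab. Chil1 then stood at -0.86, at 3.84, 5.85 and 1.95 CPM in IgG1 and 2.41, 1.16 and 3.16 CPM in ipilimumab. Neutrophil-like cells, the other class with Chil1, numbered 296, 721 and 193 in IgG1 and 250, 187 and 184 in ipilimumab. Their own Chil1 level overlapped, at 65.7 to 78.0 CPM in IgG1 and 50.2 to 72.7 CPM in ipilimumab. Without ipilimumab replicate 1, which held 163 of the 186 surfactant-rich cells, the log2 fold change over all cells was 1.46 for Slc34a2, 0.82 for Lamp3, 0.80 for Chil1 and 0.17 for Etv5.

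Free RNA gave a reading of the same genes that does not depend on calling cells. Barcodes of 1 to 99 UMIs, taken as ambient, held 2427888 to 3134593 UMIs per library. In them Lamp3 was at 2.58, 3.27 and 0.824 CPM in IgG1 and 19.1, 8.73 and 6.31 CPM in ipilimumab, and Slc34a2 at 4.06, 9.48 and 1.65 CPM and at 36.4, 15.8 and 9.96 CPM. The groups did not overlap for these 2 of the 7 genes, as for 3.68% of 10995 genes with at least 100 UMIs. The log2 fold change was 2.31 ± 0.55 for Lamp3 (unadjusted p = 0.00215), 1.98 ± 0.60 for Slc34a2 (0.00873) and 0.92 ± 0.39 for Chil1 (0.0423) by edgeR's quasi-likelihood test, and the adjusted p was 0.995 for each. It was 0.47 ± 0.46 for Etv5, 0.13 ± 0.24 for Lpcat1, 0.11 ± 0.19 for Napsa and 0.07 ± 0.19 for Abca3. Of 12521 genes tested 0% were called, 505 had an unadjusted p under 0.05, and DESeq2 called 6. Without ipilimumab replicate 1 the values were 1.73 for Lamp3 and 1.32 for Slc34a2. All 4 surfactant genes of the gate had the same sign, with a median of 2.85, and their share of ambient UMIs moved with the 2 genes. It ran from 0.00297% to 0.0292% per IgG1 library (72 to 894 UMIs) and from 0.0531% to 0.219% per ipilimumab library (1599 to 6880 UMIs).

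Per 1000 surfactant UMIs, Slc34a2, Lamp3 and Chil1 were present in the free RNA of ipilimumab replicate 1 at levels near those in its surfactant-rich cells. There Slc34a2 had 16.6 per 1000 in ambient barcodes (95% interval 13.7 to 19.9) and 19.8 in surfactant-rich cells (18.8 to 20.8), and Lamp3 had 8.72 (6.65 to 11.2) and 7.94 (7.32 to 8.61). Chil1 had 9.30 (7.16 to 11.9) and 9.28 (8.61 to 10.0) in that library. Napsa, by contrast, had 67.2 in ambient barcodes and 9.43 in surfactant-rich cells of the same library, and Abca3 21.5 and 3.61. In IgG1 replicates 1 and 2 and ipilimumab replicates 2 and 3, Chil1 had 25.4, 44.7, 12.2 and 22.5 in ambient barcodes. Their surfactant-rich cells had 6.11, 11.9, 7.35 and 17.8, with intervals that overlapped only in ipilimumab replicate 3. In these libraries the intervals of Slc34a2 overlapped, as did those of Lamp3 except in ipilimumab replicate 3 (11.9 against 6.11). In IgG1 replicate 3, without a surfactant-rich cell, the ambient barcodes still gave 4 Slc34a2 and 2 Lamp3 UMIs beside 285 Napsa UMIs.

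**Figure D5:**
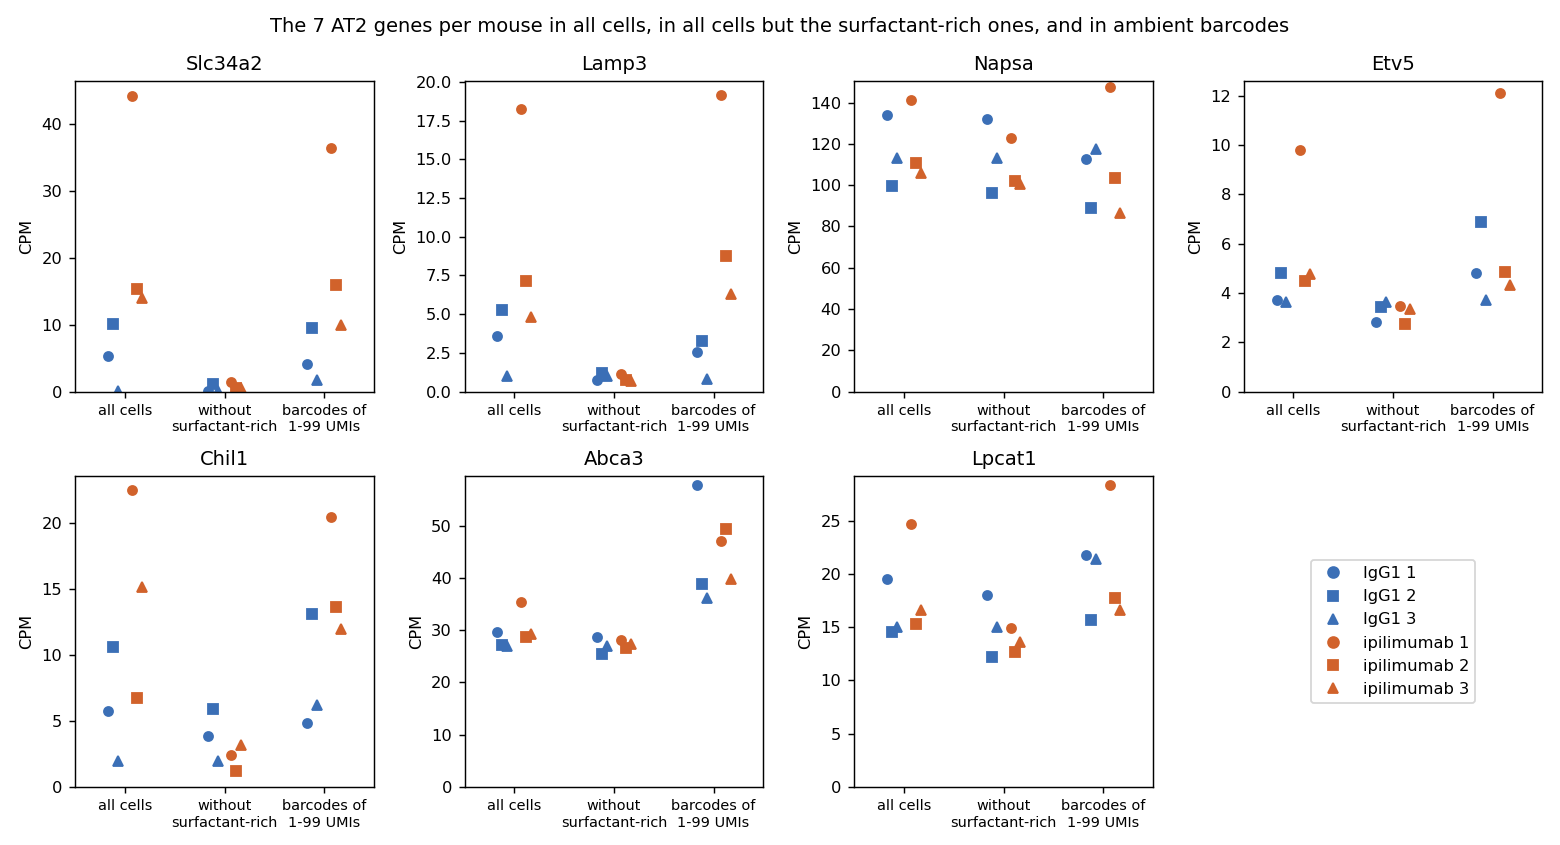
CPM of the 7 genes (y axis, from 0) per mouse in all cells, in all cells without the surfactant-rich ones, and in ambient barcodes of 1 to 99 UMIs. Slc34a2 is higher in all 3 ipilimumab mice in all cells and in ambient barcodes, and is at 1.36 CPM or less in every mouse without surfactant-rich cells, whereas Napsa and Abca3 overlap between the groups throughout. In ambient barcodes the nearest Slc34a2 values, of IgG1 replicate 2 and ipilimumab replicate 3, rest on 29 and 30 UMIs.

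The last comparison looked for treatment differences in other cell types. In 15 gated types the 7 genes gave 32 testable pairs of gene and type, and none was called, as 0% of the 96835 pairs of any gene and type were called by edgeR, with 5682 at an unadjusted p under 0.05 and 78 called by DESeq2. DESeq2 called none of the 32. Unadjusted p was under 0.05 for 2 of the 32, both of Napsa. In T-like cells Napsa was at 2.996, 1.98 and 3.65 CPM in IgG1 and 3.75, 4.04 and 6.98 CPM in ipilimumab, a log2 fold change of 0.76 ± 0.33 (unadjusted p = 0.0449, adjusted p = 0.756, edgeR). In plasma-like cells it was at 42.1 and 45.1 CPM in 2 IgG1 mice and 254 and 89.6 CPM in 2 ipilimumab mice, 1.98 ± 0.56 (unadjusted p = 0.00805, adjusted p = 0.657, edgeR), from 4 to 16 UMIs per mouse. Where the genes were best counted outside surfactant-rich cells, the groups were close. Napsa in B-like cells stood at 315, 320 and 277 CPM in IgG1 and 295, 343 and 323 CPM in ipilimumab (0.08 ± 0.09). Abca3 in alveolar macrophage-like cells stood at 38.6, 32.0 and 35.5 CPM and at 34.6, 33.3 and 32.8 CPM (-0.07 ± 0.10), and Lpcat1 in B-like cells at 27.4, 22.0 and 28.5 CPM and at 22.1, 23.2 and 24.6 CPM (-0.17 ± 0.12).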

How the data were processed

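The libraries were made from digested right lung with 10x Genomics Single Cell 3′ v3.1 reagents, 1 per mouse. The deposited values are raw UMI counts per gene and barcode, for every barcode, which the authors aligned to mm10 with Cell Ranger (7.0.0 in the submitters' processing notes; the methods and the file headers name other versions, so whether intronic reads were counted is not given in the sources used here). The authors' ambient correction and cell names came after this step and were not used here.

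Cells were called from the counts by UMI total, or, from 500 UMIs, by a profile unlike ambient RNA (false discovery rate 0.01). Barcodes with fewer than 200 genes or over 10% mitochondrial UMIs and simulated-doublet neighbours were removed. UMIs were summed per mouse and tested with edgeR 4.0.16 (quasi-likelihood test, TMM factors, filterByExpr), and a gene was called where its Benjamini-Hochberg adjusted p was under 0.05 with a log2 fold change past 0.3 in either direction, with DESeq2 1.42.0 as an alternative. The SE is the log2 fold change over the square root of F. Mice with fewer than 5 cells of a class were left out. The fits were tested on simulated data. CPM are divided by total UMIs. Intervals cover counting error only, in UMIs of PCR-amplified libraries. The p-values rest on the spread between mice together with spread that edgeR shares across genes. In the treatment test of surfactant-rich cells the spread between mice is that of the ipilimumab mice alone. Mice were not paired by replicate number in the main treatment fits. Correlations of same-numbered deviations were 0.12, 0.29 and -0.15, and those of other pairs ran from -0.41 to 0.36. With 3 mice per group this cannot exclude pairing.

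The 7 genes and the lists were chosen with earlier results of these data known. Named are all 7 genes, all paralogs, of each other list up to 4 genes with most UMIs in surfactant-rich cells, and the 3 genes most alike in profile over classes among 16000 with at least 100 UMIs. Rab38, Lyst, Elovl6 and Etv4 were named after their values were seen.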

Additional observations from a re-analysis of the deposited data

How the results depend on the processing

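All 7 genes remained higher in surfactant-rich cells than in other cells under 15 alternatives, and the number of genes called there, 4615, was within 1.5 times of that in each of them but one, 2892 without ipilimumab replicate 1 (leaving out 1 mouse gave 2892 to 3839). Without the mouse block, stated as no replicate block, it was 5071. Leaving out airway-rich cells, 1 of the 15 alternatives, could change nothing, since no surfactant-rich cell was airway-rich. Between treatments in surfactant-rich cells, 0 genes were called, against 3 by DESeq2, 102 without the filter on low counts, 71 with the replicate block over the 5 mice with at least 1 such cell (chosen after seeing the data), and 3 to 98 with 1 ipilimumab mouse left out of the 4 mice with at least 5 such cells (89 without replicate 1, 3 without replicate 2 and 98 without replicate 3), so that each such fit made calls. In the fit of the 5 mice with at least 1 such cell, leaving out 1 mouse gave 0 to 2. None of the 7 genes was among them. No value could be had there with IgG1 replicate 2 left out, with cells called by UMI threshold alone or with cells of at least 2000 UMIs, since no IgG1 mouse then had 5 cells, and the paired fit of the 4 mice had no residual degrees of freedom. In all cells DESeq2 called 42 genes, and in ambient barcodes DESeq2 called 6, no filter on low counts 58 and the replicate block 5, while leaving out any 1 mouse gave 0 in both. Without the filter on low counts Lamp3 (2.28, adjusted p = 0.00419) and Slc34a2 (1.95, adjusted p = 0.00464) were called in ambient barcodes. The cause was not tested.

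Signs changed only for log2 fold changes that were not called. In surfactant-rich cells Chil1 went from -0.21 to 0.079 with a 2% gate and 0.065 with at least 1 cell per mouse. Leaving out 1 mouse gave -0.75 to 0.54, the value being 0.032 once ipilimumab replicate 2 was dropped. Among the 5 mice with at least 1 cell it was 0.24 on dropping ipilimumab replicate 1, 0.34 on dropping ipilimumab replicate 2 and 0.54 on dropping IgG1 replicate 2. In all cells without the surfactant-rich cells, Abca3 was -0.031, Chil1 -0.86, Etv5 -0.10, Lamp3 -0.30, Lpcat1 -0.18 and Napsa -0.12. Napsa was -0.0002 with DESeq2, -0.0024 with the replicate block, -0.012 with doublets kept, -0.0575 with cells called by UMI threshold alone and -0.10 to 0.11 with 1 mouse left out, and Lpcat1 was -0.048 to 0.29 with 1 mouse left out. In ambient barcodes leaving out 1 mouse gave -0.069 to 0.29 for Abca3, -0.14 to 0.78 for Etv5, -0.14 to 0.26 for Lpcat1 and -0.12 to 0.26 for Napsa. The replicate block changed no call of the 7 genes. The comparison within surfactant-rich cells is limited by its 9 IgG1 cells.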
